A study of Homo sapiens with 4 samples.

Results

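Expression of 8 genes of cholesterol synthesis and its feedback control was examined in single cells of BEAS-2B, a human bronchial epithelium line transformed to grow without limit. The 8 genes, HMGCS1, SQLE, INSIG1, IDI1, FDFT1, SC5D, DHCR7 and LSS, were chosen by symbol from the 36601 genes listed, and all 8 were found. The cells received 10 mGy, 100 mGy or 1 Gy from a Cs-137 gamma-ray source, or no radiation (control), and the study's methods state 30 min of culture before sequencing. All 4 groups are cultures of the same line, with 1 single-cell library each. The libraries hold the unique molecular identifiers (UMIs, 1 per captured mRNA molecule) counted per gene and cell barcode. There is no replicate, and a dose cannot be told apart from its library, so no p-value is given. Levels are UMIs per 1000000 UMIs of the library (CPM), summed over all deposited barcodes, with exact 95% intervals that cover counting error only.

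Cells make cholesterol from acetyl-CoA through mevalonate, isoprenoid units, squalene and lanosterol. When sterols in the endoplasmic reticulum are low, SREBP2, carried by SCAP, is released to the Golgi and cleaved, and its free part enters the nucleus and switches on the genes of synthesis and uptake. INSIG proteins hold SCAP back when sterols are plentiful, and INSIG1 is itself such a target gene, so that it closes a feedback loop. In cultured cells these genes are known to move together with the supply of lipoproteins in the medium.

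In the order of the pathway, HMGCS1 (ENSG00000112972, chr5:43289395-43313512) makes HMG-CoA, and IDI1 (ENSG00000067064, chr10:1039152-1049170) interconverts the 2 isoprenoid building blocks. FDFT1 (ENSG00000079459, chr8:11795573-11839309) joins farnesyl units to squalene. SQLE (ENSG00000104549, chr8:124998497-125022283) oxidizes squalene, and LSS (ENSG00000160285, chr21:46188141-46228824) closes the rings to lanosterol. SC5D (ENSG00000109929, chr11:121292453-121308694) and DHCR7 (ENSG00000172893, chr11:71428193-71452868) act on the late sterols. INSIG1 (ENSG00000186480, chr7:155297776-155310235) is the retention protein. None of the 8 is an uptake receptor. These positions are those of GENCODE 29 on GRCh38, matched by gene identifier, whereas the submitters' processing notes name GRCh37.

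The libraries held 211752280 to 285806026 UMIs over 11111 to 21514 barcodes, and any 2 libraries shared 76 to 134 barcode sequences. Low-UMI barcodes, those with a total under the library median divided by 3, were 19.6% of all barcodes in the unirradiated library, 41.4% after 10 mGy, 27.4% after 100 mGy and 25.4% after 1 Gy. Of the epithelial markers, KRT7, KRT8 and KRT18 lay between 219 and 645 CPM, while EPCAM, CDH1 and KRT19 were at 2.41 CPM or less. The basal markers KRT5, KRT14 and TP63 were at 0.03 CPM or less, and of the mesenchymal markers VIM was at 2344 CPM or more, COL1A1 at 20.5 to 25.6 CPM and PDGFRA at 0.07 to 0.12 CPM. Of the immune markers, PTPRC and CD3E were at 0.06 CPM or less, while CD68, a lysosomal protein of macrophages, was at 7.02 to 10.8 CPM. The endothelial PECAM1 was at 0.03 CPM or less and VWF at 0.29 to 0.49 CPM. Against the control, the median log2 ratio over 8507 genes with a mean of at least 10 CPM was -0.30 after 10 mGy, -0.38 after 100 mGy and 0.02 after 1 Gy. After the low doses the log2 ratio was also lower for genes of greater exonic length, with a Spearman rho across 8500 genes of -0.555 after 10 mGy and -0.567 after 100 mGy, beside 0.03 after 1 Gy. Genes are not independent replicates. The part of this shift in the members' values was not tested, and the shift at the median gene is given beside them.

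The promoters of the members are shown next. Whether their motifs relate to the co-variation between cells (see the pair correlations) was not tested. A RefSeq table on GRCh38.p14 held 11 start sites for 6 members. SQLE and FDFT1 had no entry there. Windows of 300 bases, 250 before and 50 after each start, were searched on both strands for CACNCCAC, a core of the sterol response element bound by SREBP, and for CCAAT and GGGCGG, the boxes of NF-Y and Sp1. CACNCCAC was found in 4 of the 11 windows, from INSIG1, IDI1 and SC5D, against 5.87% of all 35116 windows. CCAAT was in 8 of 11 windows (34.6% of all) and GGGCGG in 10 of 11 (45.0% of all). Each of the 6 members had a window with CCAAT. Of 12 other sterol enzymes, 0 had CACNCCAC and 9 had CCAAT. The 3 members with a CACNCCAC match follow, each as the 250 bases before the start, 5′ to 3′, with the match in capitals. The match stands on the opposite strand in each, with the same 8 letters.
INSIG1, chr7:155297628-155297877, plus strand: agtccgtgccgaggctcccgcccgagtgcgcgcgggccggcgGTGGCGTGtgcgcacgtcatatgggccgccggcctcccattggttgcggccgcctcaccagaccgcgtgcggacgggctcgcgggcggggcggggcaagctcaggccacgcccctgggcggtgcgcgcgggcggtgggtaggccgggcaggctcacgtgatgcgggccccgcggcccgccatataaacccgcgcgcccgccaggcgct
IDI1, chr10:1048887-1049136, minus strand: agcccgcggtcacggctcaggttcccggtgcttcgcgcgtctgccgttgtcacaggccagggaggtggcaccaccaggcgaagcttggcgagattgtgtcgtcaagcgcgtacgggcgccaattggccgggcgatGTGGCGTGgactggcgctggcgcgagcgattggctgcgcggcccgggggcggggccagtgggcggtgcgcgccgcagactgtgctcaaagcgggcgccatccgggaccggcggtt
SC5D, chr11:121292602-121292851, plus strand: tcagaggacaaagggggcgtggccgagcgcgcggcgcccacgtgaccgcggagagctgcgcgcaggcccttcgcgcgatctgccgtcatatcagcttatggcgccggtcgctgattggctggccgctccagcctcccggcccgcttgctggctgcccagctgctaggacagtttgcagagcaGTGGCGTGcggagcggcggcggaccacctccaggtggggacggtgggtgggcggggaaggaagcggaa
The match begins 208 bases before the start in INSIG1, 115 in IDI1 and 68 in SC5D, and the same SC5D match lies after the start of its other window. These are matches of letters, and binding was not measured. Other forms of the element and bases outside the windows were not searched, so a gene without a match cannot be said to lack the element.

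In CPM the 8 cholesterol synthesis genes had their highest level after 10 mGy, and after 100 mGy and 1 Gy their summed level was close to that of the control. Together they took 697 CPM (694 to 701) in the control, 879 (876 to 882) after 10 mGy, 693 (690 to 696) after 100 mGy and 696 (692 to 699) after 1 Gy. The summed ratio to the control was thus 1.26 (1.25 to 1.27) after 10 mGy, although as unscaled UMIs per barcode it was 0.875, below the control. It was 0.994 (0.987 to 1.00) after 100 mGy and 0.998 (0.991 to 1.01) after 1 Gy, and both intervals hold 1. After 100 mGy the summed ratio depended on the scaling, with 1.30 for median ratio scaling, 1.28 adjusted for exonic length and 0.636 unscaled. After 1 Gy the summed ratio was 0.711 unscaled. Unscaled values are not corrected for the UMIs per barcode. The median barcode held 19771 UMIs in the control, 13757 after 10 mGy, 12417 after 100 mGy and 14277 after 1 Gy. Unscaled, the median log2 ratio over all genes was -0.83 after 10 mGy, -1.03 after 100 mGy and -0.47 after 1 Gy. In CPM all 8 members were highest after 10 mGy, as were 1189 of the 8507 genes (14.0%).

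**Figure D1:**
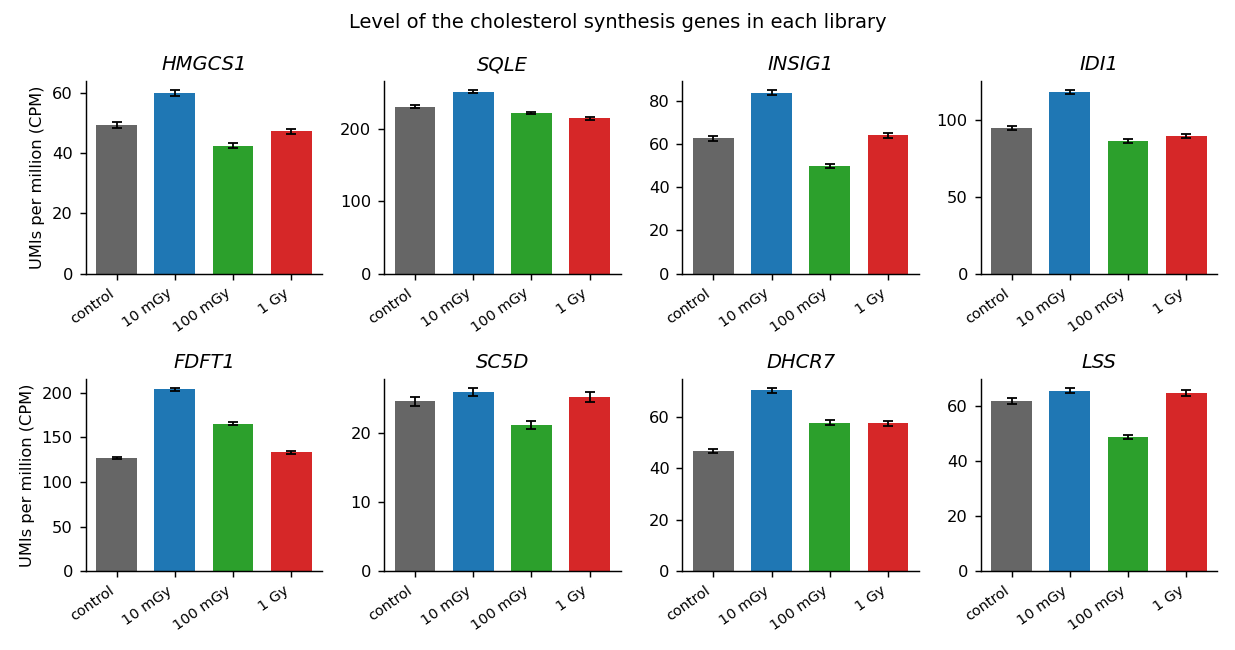
Level of each member in the 4 libraries, in UMIs per 1000000 (CPM, axis from 0). Bars are library values and error bars exact 95% counting intervals, without replicates. In all 8 panels the bar after 10 mGy is the tallest, from 25.9 CPM for SC5D to 252 CPM for SQLE. As unscaled UMIs per barcode 6 of the 8 were below the control after 10 mGy, where 84.6% of all genes were over 1.2-fold lower.

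At the entry of the pathway, HMGCS1 was at 49.5 CPM in the control, 60.1 after 10 mGy, 42.5 after 100 mGy and 47.3 after 1 Gy. Its ratio to the control was 1.22 (1.19 to 1.25) after 10 mGy and 0.860 (0.837 to 0.883) after 100 mGy. IDI1 had 94.9, 118, 86.2 and 89.4 CPM in the same order. The ratio of IDI1 was 1.24 after 10 mGy and 0.908 after 100 mGy. In CPM both genes were thus above the control after 10 mGy only, and lowest after 100 mGy, whereas after 100 mGy median ratio scaling put them above the control (1.12 and 1.19), and as unscaled UMIs per barcode they were below it after 10 mGy (0.843 and 0.863). At 1 Gy they stood slightly below the control, with 0.957 for HMGCS1 and 0.942 for IDI1.

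The enzymes around squalene differed in size. FDFT1, squalene synthase, was at 127 CPM in the control, 204 after 10 mGy, 165 after 100 mGy and 133 after 1 Gy. It had the largest ratio of the 8 after 10 mGy, 1.61 (1.58 to 1.63), and was above the control after 100 mGy with 1.30 (1.28 to 1.32), or 0.833 as unscaled UMIs per barcode. SQLE, the oxygen-dependent epoxidase, was at 230, 252, 222 and 215 CPM. In CPM its ratios of 1.09, 0.963 and 0.931 lay within 1.2-fold of the control, whereas with median ratio scaling they were 1.34 after 10 mGy and 1.26 after 100 mGy, and unscaled 0.616 after 100 mGy. For LSS the levels were 61.7, 65.5, 48.6 and 64.6 CPM, and the ratio after 100 mGy was 0.788 (0.769 to 0.808). In CPM LSS was therefore nearly level in 3 libraries and low after 100 mGy, where its ratio was 1.03 with median ratio scaling and 1.18 adjusted for exonic length. LSS is also the longest of the 8 by exons, with 7238 bases, and INSIG1 the shortest with 3650.

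Among the late enzymes, DHCR7, which makes cholesterol from 7-dehydrocholesterol, was at 46.7 CPM in the control, 70.2 after 10 mGy, 57.7 after 100 mGy and 57.4 after 1 Gy. DHCR7 was the only member to pass 1.2-fold at each of the 3 doses, with ratios of 1.505 (1.47 to 1.54), 1.24 (1.204 to 1.27) and 1.23 (1.198 to 1.26). With the mean of scaled barcodes the ratio after 1 Gy was 1.19, under that size. Its level after 100 mGy and after 1 Gy did not differ beyond the counting intervals. As unscaled UMIs per barcode its ratio was 0.791 after 100 mGy and 0.877 after 1 Gy. SC5D, the sterol desaturase, was at 24.5, 25.9, 21.1 and 25.1 CPM, and in CPM its ratios of 1.05, 0.861 and 1.02 stayed within 1.2-fold. After 10 mGy the ratio of SC5D was 1.34 adjusted for exonic length and 0.995 with the mean of scaled barcodes, and after 100 mGy it was 0.551 unscaled. The levels of SC5D in the control and after 1 Gy had overlapping intervals.

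INSIG1, the feedback protein, moved most between the low doses. It was at 62.6 CPM in the control, 83.9 after 10 mGy, 49.9 after 100 mGy and 64.0 after 1 Gy. The ratio to the control was 1.34 (1.31 to 1.37) after 10 mGy and 0.798 (0.778 to 0.818) after 100 mGy. At 1 Gy it was 1.02 (0.999 to 1.05), an interval that holds 1. With median ratio scaling the ratio after 100 mGy was 1.04, on the other side of the control. As unscaled UMIs per barcode INSIG1 was below the control after both low doses, with 0.930 after 10 mGy and 0.510 after 100 mGy.

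By size alone, 5 members were over 1.2-fold higher after 10 mGy (HMGCS1, INSIG1, IDI1, FDFT1 and DHCR7) and 0 lower, where 15.4% of the 8507 genes were higher and 53.0% lower. At 100 mGy, 2 members were higher (FDFT1 and DHCR7) and 2 lower (INSIG1 and LSS), against 14.0% and 58.9% of all genes. At 1 Gy, 1 member was higher (DHCR7) and 0 lower, against 1.28% and 0.846%. The median log2 ratio of the 8 was 0.30, -0.18 and 0.03 after 10 mGy, 100 mGy and 1 Gy, beside -0.30, -0.38 and 0.02 over all genes. Scaled by the median ratio over genes, the backgrounds after 10 mGy were 30.6% higher and 27.3% lower, and after 100 mGy 31.8% and 29%. On that scale 8 members were higher after 10 mGy, and 3 higher and 0 lower after 100 mGy, where all 8 ratios were above 1. The summed ratio on that scale was 1.55 after 10 mGy and 1.30 after 100 mGy. As unscaled UMIs per barcode all 8 were below the control after 100 mGy and after 1 Gy. Over 1.2-fold lower on that scale were 90.1% and 97.2% of all genes. After 10 mGy 0 members were over 1.2-fold higher and 3 lower unscaled, against 1.62% and 84.6% of all genes. Thinned to 5000 UMIs, the ratio of HMGCS1 after 10 mGy was 1.18, under 1.2-fold. Set against genes of like exonic length (the running median over genes ordered by length, from -0.45 to -0.16 after 10 mGy), each member's log2 ratio was 0.38 to 0.97 higher after 10 mGy. The same difference ran from -0.11 for INSIG1 to 0.75 for FDFT1 after 100 mGy, and from -0.14 for SQLE to 0.27 for DHCR7 after 1 Gy.

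The step between the low doses was added after the levels were seen. It went down for every member, which follows from all 8 being highest after 10 mGy in CPM. At 100 mGy all 8 were below their level after 10 mGy, as were 67.8% of all genes, with a summed ratio of 0.789 (0.784 to 0.793), and this direction held under every scaling and selection of barcodes tried. Between these doses 7 members were over 1.2-fold lower and 0 higher, against 12.7% and 1.35% of all genes. The lower count was 4 of 8 with median ratio scaling, against 6.35% of all genes, and 4 of 8 adjusted for exonic length, against 6.73%. INSIG1 had the lowest ratio, 0.595 (0.582 to 0.608), and 23 of the 8507 genes stood lower. The ratio was 0.707 for HMGCS1, 0.730 for IDI1 and 0.742 for LSS, with 138, 215 and 259 genes lower. FDFT1, SC5D and DHCR7 were close together at 0.810, 0.816 and 0.821. SQLE had the smallest step at 0.882 (0.872 to 0.892), with 2095 genes lower. The median log2 ratio was -0.37 over the members and -0.07 over all genes. This step was less tied to exonic length (rho -0.200) than the ratios to the control, and the running median at the members' lengths ran from -0.10 to -0.03.

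**Figure D2:**
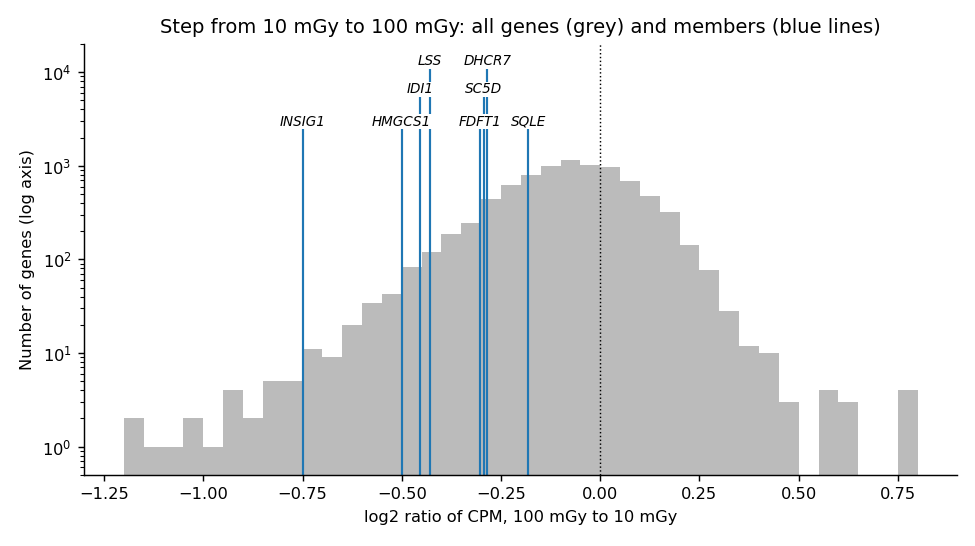
Log2 ratio of CPM after 100 mGy to 10 mGy (x axis) for 8507 genes, with the number of genes on a log axis, grey bars for all genes and blue lines for the 8 members. The end bars also hold genes beyond the axis. All 8 members lie left of 0, from -0.75 for INSIG1 to -0.18 for SQLE, while the median of all genes is -0.07.

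Other genes of the pathway were read from lists. Of 14 other sterol enzymes 13 reached 10 CPM. At 10 mGy 6 of them were over 1.2-fold higher and 1 lower, and after 100 mGy 5 and 2, where all genes had 15.4% and 53.0%, then 14.0% and 58.9%. Their median log2 ratio was 0.24 after 10 mGy, 0.17 after 100 mGy and -0.05 after 1 Gy. FDPS, which makes farnesyl diphosphate, was at 94.9 CPM in the control, 183 after 10 mGy, 149 after 100 mGy and 103 after 1 Gy. ACAT2, the cytosolic thiolase, had 115, 198, 176 and 109 CPM, and the isomerase EBP had 84.3, 151, 124 and 81.3. The lamin B receptor LBR, which also carries sterol reductase activity, went the other way with 109, 69.3, 71.6 and 103 CPM. CYP51A1, the lanosterol demethylase, had 194, 166, 162 and 170 CPM. Of the 13, 9 were highest after 10 mGy, beside 14.0% of all genes.

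The regulators did not share the high level after 10 mGy. SREBF2, which encodes SREBP2, was at 43.4 CPM in the control, 36.0 after 10 mGy, 31.2 after 100 mGy and 49.98 after 1 Gy. SCAP, the escort protein, had 17.6, 12.1, 10.7 and 18.4 CPM. With the proteases MBTPS1 and MBTPS2, 4 of 4 tested regulators were over 1.2-fold lower than the control after 10 mGy and after 100 mGy, and 0 of 4 after 1 Gy. SREBF1 and INSIG2 did not reach the floor of 10 CPM on average. The same side held 53.0% and 58.9% of all genes at these doses. Set against genes of like exonic length, none of the 4 was over 1.2-fold lower, with log2 differences of 0.20 for SREBF2, -0.12 for SCAP, -0.11 for MBTPS1 and -0.06 for MBTPS2 after 10 mGy, and from -0.23 for SCAP to 0.10 for SREBF2 after 100 mGy.

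Of 10 uptake, transport and efflux genes 7 were tested. At 10 mGy 2 were over 1.2-fold higher and 4 lower, and after 100 mGy 1 and 5. Beside these stood 15.4% and 53.0%, then 14.0% and 58.9%, of all genes. Set against genes of like exonic length, their log2 differences ran from -0.21 for SOAT1 to 0.66 for NPC2 after 10 mGy. None was thus over 1.2-fold lower after 10 mGy. After 100 mGy the differences ran from -0.48 for SOAT1 to 0.61 for NPC2. NPC2, a lysosomal cholesterol carrier, was at 124, 192, 178 and 130 CPM in the order of doses, and the lysosomal lipase LIPA at 22.1, 28.6, 22.1 and 24.5. NPC1, the membrane partner of NPC2, was at 43.5 CPM in the control, 41.0 after 10 mGy, 24.4 after 100 mGy and 41.5 after 1 Gy. The sterol carrier STARD4 had 37.2, 29.4, 21.3 and 38.0 CPM. From 10 mGy to 100 mGy, 5 of the 7 were over 1.2-fold lower and 0 higher, beside 12.7% and 1.35% of all genes. Of the 9 fatty acid genes, driven mainly by the sister factor SREBP1, 1 was higher and 4 lower after 10 mGy. After 100 mGy 0 were higher and 6 lower, with the same shares of all genes against the control as above. Against genes of like exonic length, the 9 ran from -0.10 for ACACA to 0.82 for ACSS2 in log2 after 10 mGy. After 100 mGy they ran from -0.38 for ELOVL6 to 0.58 for ACSS2. The desaturase SCD was at 73.1, 60.8, 43.7 and 80.7 CPM. In the same step from 10 mGy to 100 mGy, 4 of the 9 fatty acid genes were over 1.2-fold lower and 0 higher. For the other sterol enzymes this was 5 of 13 and 0, and for the regulators 0 of 4 and 0. Of 12 listed S phase genes 2 were lower and 0 higher, and of 10 G2/M genes 0 and 1.

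The members also varied together between the cells of each library. For this, low-UMI barcodes were left out, which left 8937 barcodes in the control, 12603 after 10 mGy, 14477 after 100 mGy and 11566 after 1 Gy, and Pearson's r was taken over barcodes on log2(1 + UMIs per 10000). All values of r are descriptions within a library, the barcodes of which share a culture and a preparation. Over the 28 pairs of members the median r was 0.123 in the control, 0.165 after 10 mGy, 0.102 after 100 mGy and 0.098 after 1 Gy, and all 28 were above 0 in each library. For all pairs of the 1779 genes with at least 100 CPM the median was 0.0051, 0.0077, 0.011 and 0.0060, and 0.397% to 1.53% of those pairs exceeded the members' median. With every deposited barcode kept, that share was 24.7% in the control, 17.5% after 10 mGy, 43.5% after 100 mGy and 33.1% after 1 Gy. Single values of r are small, and the counts per cell behind them are low.

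In each library the strongest pair was among HMGCS1, SQLE, INSIG1 and IDI1. SQLE and INSIG1 had an r of 0.283 in the control, 0.323 after 10 mGy, 0.209 after 100 mGy and 0.258 after 1 Gy. SQLE and IDI1 had 0.295, 0.321, 0.216 and 0.223, and HMGCS1 and INSIG1 0.280, 0.315, 0.213 and 0.231. These 3 pairs thus kept an r above 0.2 in all 4 libraries. So did HMGCS1 with SQLE (0.209 to 0.308) and HMGCS1 with IDI1 (0.207 to 0.307). HMGCS1 with SQLE was the highest pair in the control, at 0.296. INSIG1 with IDI1 was at 0.185 after 100 mGy. The pair of the sterol desaturase SC5D with LSS was the weakest, between 0.022 and 0.050. The depth of the libraries differed, with a median of 21752 UMIs per barcode in the control, 19927 after 10 mGy, 15108 after 100 mGy and 16426 after 1 Gy, and the level of the members was highest after 10 mGy. Thinned to 5000 UMIs per barcode, the median r was 0.038, 0.058, 0.045 and 0.030, with 27 of 28 pairs above 0 in the control and 28 elsewhere. The order of the libraries was thus not the same at equal depth, with 10 mGy first in both cases. With every deposited barcode kept, 10 mGy came last, with 0.118 beside 0.130 in the control, 0.130 after 100 mGy and 0.123 after 1 Gy.

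**Figure D3:**
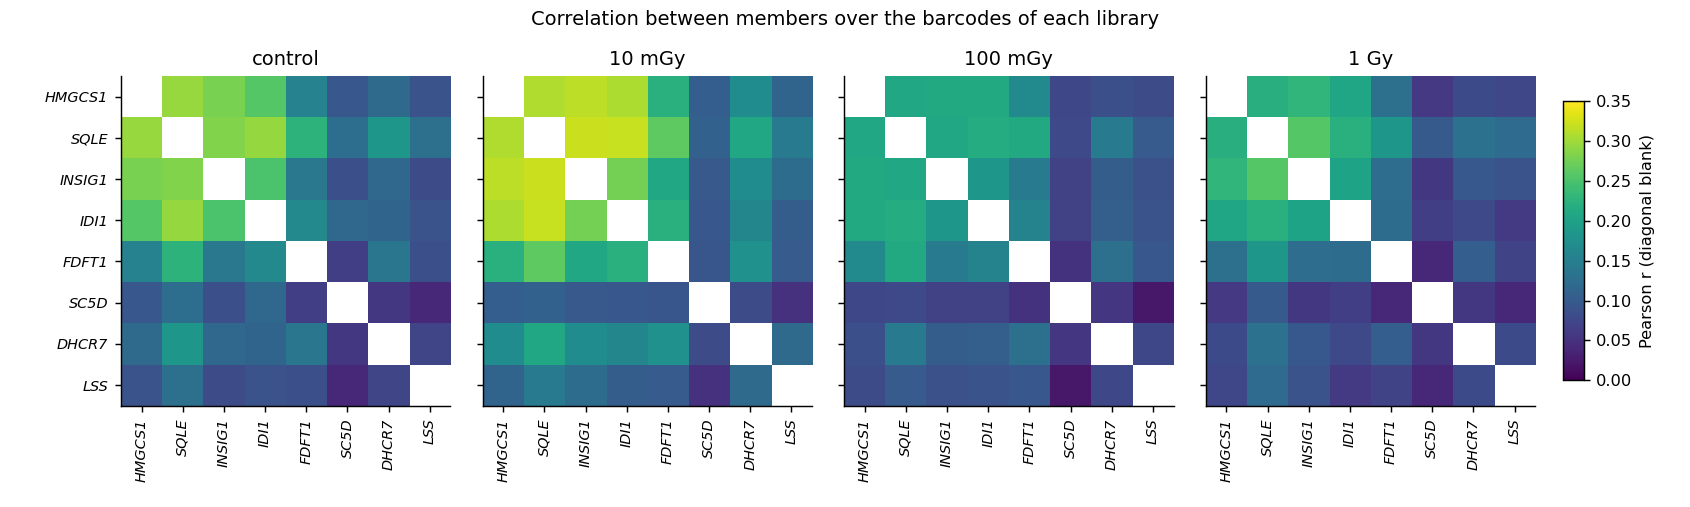
Pearson r over barcodes for each pair of the 8 members, 1 panel per library, with the colour scale from 0 to 0.35 and the diagonal left blank. The highest r in each panel lies among HMGCS1, SQLE, INSIG1 and IDI1, up to 0.323 after 10 mGy, and the pairs of SC5D and LSS are low, with the lowest r of 0.022 after 100 mGy.

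To place these values, each member was set against the sum of the other 7, and its r was ranked against that of the 8499 genes that are no member. SQLE was first of 8500 in all 4 libraries, with an r of 0.441 in the control, 0.454 after 10 mGy, 0.344 after 100 mGy and 0.371 after 1 Gy. HMGCS1 ranked 3, 1, 3 and 3, INSIG1 3, 1, 3 and 2, and IDI1 3, 1, 3 and 4. FDFT1 ranked 7, 3, 3 and 7, and DHCR7 ranked 8, 6, 8 and 9. LSS ranked 24, 15, 20 and 18. SC5D, the member with the fewest UMIs, ranked 27, 31, 68 and 44. So each member stood among the first 68 of 8500 genes in every library, and the median rank was 5, 2, 3 and 5.5. For the genes outside the list the median r with the summed members was 0.011 to 0.019. The summed members had an r of 0.124 to 0.161 with the log2 total UMIs of the barcode, and with depth regressed out the median ranks were 5.5, 2, 3 and 5. With every deposited barcode kept, the median ranks were 16, 37, 158.5 and 188.5, and the median r over all gene pairs was then 0.084 to 0.124.

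**Figure D4:**
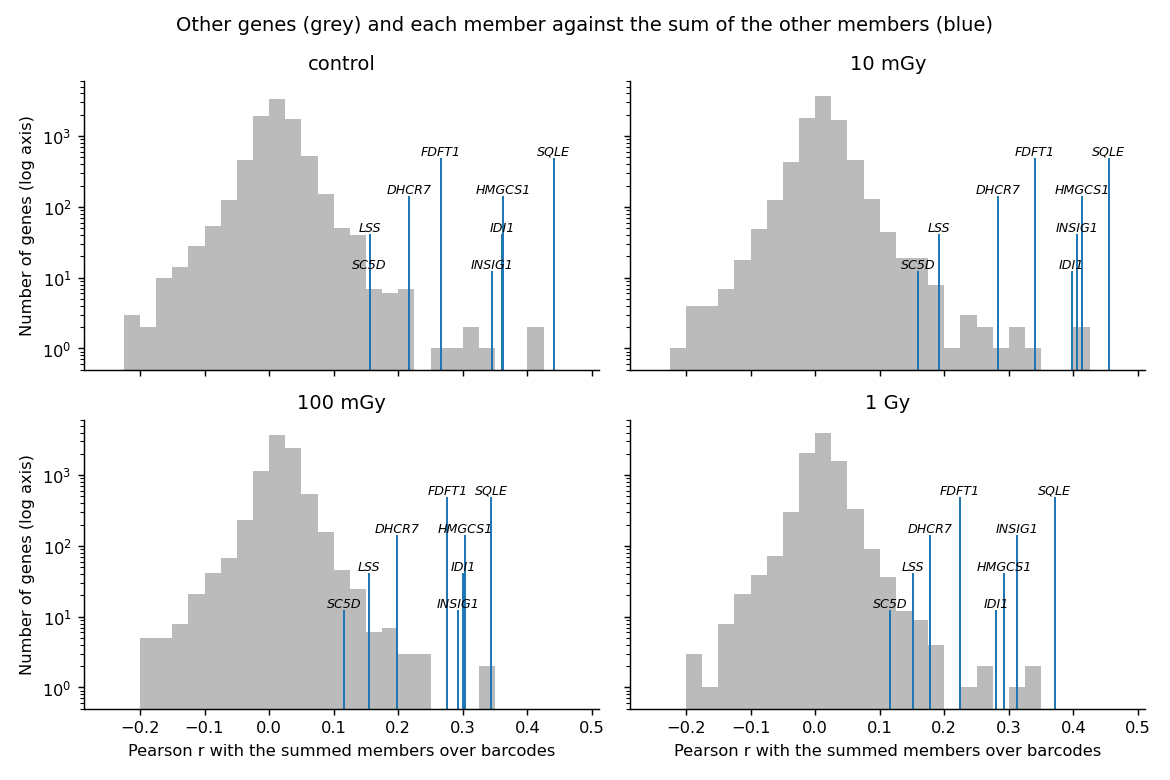
Number of genes (log axis) by their Pearson r with the summed members over barcodes, 1 panel per library. Grey bars are the 8499 genes that are no member, and blue lines are the members, each against the sum of the other 7. SQLE lies furthest right in all 4 panels, at 0.344 to 0.454, and the bulk of genes lies near 0.

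Outside the list, sterol and fatty acid enzymes were prominent among the genes most like the summed members, beside genes of neither kind. Likeness was the lowest r over the 4 libraries. CYP51A1 and MSMO1, which remove methyl groups from lanosterol, ranked 1 and 2 with 0.329 each. SCD, FADS1 and FASN of fatty acid synthesis ranked 6, 7 and 8 with 0.222, 0.187 and 0.175. NEAT1, a nuclear noncoding RNA, ranked 9 with 0.171, and NSDHL, another sterol enzyme, ranked 10 with 0.161. Among the first 100 of 8499 genes were 9 of 13 tested sterol enzymes, 6 of 9 fatty acid genes and 1 of 7 uptake, transport and efflux genes. That gene was STARD4, at rank 15. SREBF2, at rank 43, was the 1 regulator of 4.

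CYP51A1 was closest to the members between cells and in CPM was lower after 10 mGy (166) than in the control (194). Its log2 ratio of -0.23 was above the -0.30 of the median gene, so the direction turns where levels are scaled to that gene. PMVK, of the mevalonate steps, and GGPS1, of the branch to geranylgeranyl diphosphate, ranked 6582 and 5333, at 31.6 to 41.8 CPM and 12.8 to 16.5 CPM. LBR ranked 2301. Among the cell cycle lists, 7 of 12 S phase genes and 0 of 10 G2/M genes were in the first 100. The summed S phase list had an r of 0.192 to 0.222 with the summed members, and the summed G2/M list -0.142 to -0.065. The cyclin CCNB1 had the lowest likeness of all 8499 genes, from -0.209 to -0.166 by library. The part of cell cycle stage in the co-variation was not tested.

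The pattern was then examined at equal depth, with 1 set of members ranking the barcodes and the other being read. Barcodes were thinned to 5000 UMIs, which left out 2051 in the control, 8953 after 10 mGy, 5679 after 100 mGy and 3980 after 1 Gy. They were sorted by the UMIs of HMGCS1, INSIG1, FDFT1 and DHCR7 into 5 equal bins, with ties broken by a random draw. The mean of these 4 genes in the bottom bin was 0.168 UMIs after 10 mGy and 0 in the other libraries. In the top bin it was 3.52 in the control, 4.80 after 10 mGy, 3.83 after 100 mGy and 3.65 after 1 Gy. The bins thus span unlike ranges in the libraries. The mean of SQLE, IDI1, SC5D and LSS together went from 1.75 UMIs in the bottom bin to 2.52 in the top bin of the control, and from 1.82 to 3.02 after 10 mGy. It went from 1.55 to 2.48 after 100 mGy and from 1.64 to 2.45 after 1 Gy. The top to bottom ratios were 1.44, 1.66, 1.60 and 1.499. In the reverse direction the ratios were 1.57, 1.66, 1.70 and 1.54. The summed means increased from bin to bin in all 8 of these series, whereas single members did not always do so, and in the control only HMGCS1 and IDI1 did.

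Single members differed in this range. Each was read in bins ranked by the set it does not belong to, so members of different sets were read in different bins. HMGCS1 had the widest except after 1 Gy, where INSIG1 exceeded it, with 0.175 UMIs in the bottom bin and 0.390 in the top bin of the control, and ratios of 2.23, 2.34, 2.38 and 1.86 in the order of doses. INSIG1 had ratios of 1.73, 1.94, 2.19 and 1.92. IDI1 had 1.61, 1.90, 1.78 and 1.53, and SQLE 1.45, 1.64, 1.61 and 1.63. LSS had 1.202, 1.40, 1.43 and 1.18. FDFT1 had 1.38, 1.43, 1.499 and 1.35, DHCR7 1.31, 1.54, 1.49 and 1.37, and SC5D 1.37, 1.51, 1.26 and 1.24. Between the bottom and top bins of SQLE, IDI1, SC5D and LSS, the G2/M list went from 17.7 to 14.2 UMIs in the control and the S phase list went from 6.54 to 7.26. At 10 mGy the G2/M list went from 13.3 to 11.4 UMIs.

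**Figure D5:**
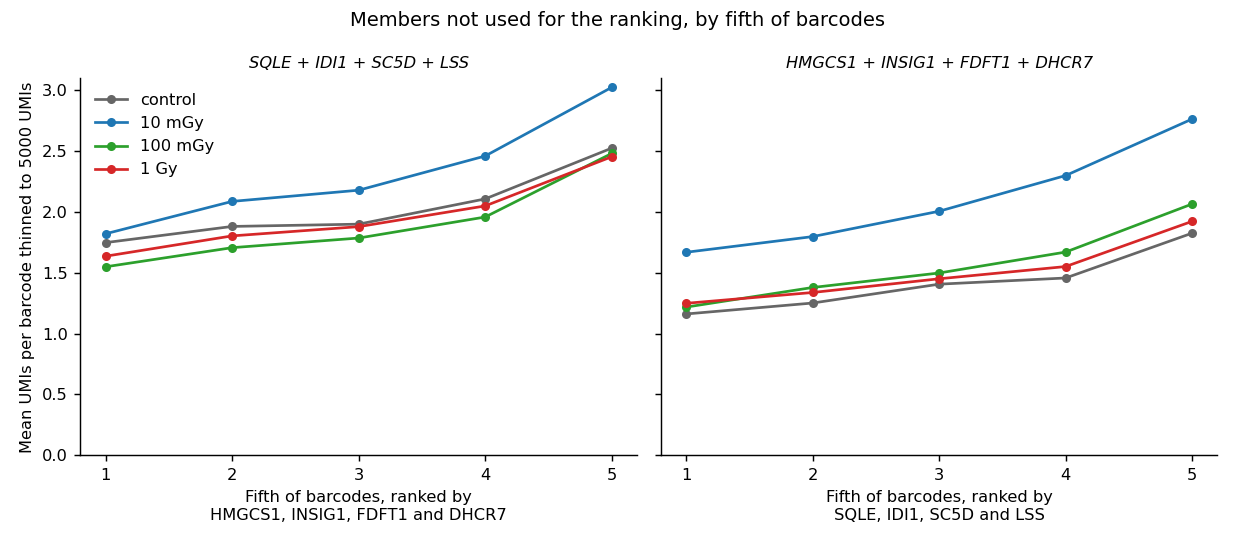
Mean UMIs of the 4 members not used for ranking (y axis, from 0, per barcode thinned to 5000 UMIs) in 5 equal bins of barcodes ranked by the other 4 members, 1 line per library. Each line climbs from bin 1 to bin 5, by 1.44 to 1.70 times, and after 10 mGy, where the members' level was highest, the line is the highest in bin 5 of both panels.

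The spread of single genes between cells was read from the Fano factor (variance over mean) at 5000 UMIs, which is near 1 for pure counting noise. Its median over all genes was 1.02 in each library and its 95th percentile 1.11 to 1.13. SQLE had 1.22 in the control, 1.22 after 10 mGy, 1.21 after 100 mGy and 1.18 after 1 Gy, and HMGCS1 had 1.24, 1.23, 1.16 and 1.16. IDI1 had 1.127, 1.18, 1.14 and 1.14. These 3 genes exceeded the 95th percentile in all 4 libraries, IDI1 narrowly in the control. INSIG1 lay between 1.11 and 1.16, below the percentile after 100 mGy only, and FDFT1 had 1.07, 1.15, 1.14 and 1.08, above the percentile after 10 mGy and 100 mGy. SC5D and LSS were at 1.01 to 1.04, close to the median gene. DHCR7 was at 1.00 in the control and 1.06 at each dose. The excess of this factor over 1 also depends on a gene's mean, which was 0.10 to 0.13 UMIs for SC5D and 1.06 to 1.24 for SQLE. For FDFT1 the mean was 0.618 UMIs in the control, 1.02 after 10 mGy, 0.814 after 100 mGy and 0.662 after 1 Gy. The factors were not adjusted for the mean, so they do not rank genes or libraries by spread.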

How the data were processed

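Raw UMI counts, 1 matrix of genes by barcodes per library, were deposited, with no normalization. Per the file headers they were made with Cell Ranger 7.0.1, and the submitters' processing notes also name STAR and GRCh37. Which annotation was used and how intronic reads were treated is not given in the sources used here. Libraries were made with the Chromium Single cell 3′ v3 kit. The gene lists, the members and the comparisons were chosen with earlier results of these data known.

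Groups came from the treatment labels. UMIs were summed over all deposited barcodes and divided by the library total (212804850 in the control, 285806026, 244474368 and 211752280 after 10 mGy, 100 mGy and 1 Gy). Intervals are exact, Poisson for a level and Clopper-Pearson on the shared count for a ratio, and PCR and culture variation are not covered. Genes needed a mean of 10 CPM (8507 genes), and the size rule was a 1.2-fold difference. The step from 10 mGy to 100 mGy was added after the levels were seen. Co-variation left out barcodes with a total under the library median divided by 3. Doublets were kept. Named genes were the members, the gene lists and the 10 genes most like the members. Of those 10, 3 are not reported here. Exonic length joins all GENCODE 29 exons. Ratios and correlations were tested on simulated data, with the ratios scaled to the median gene. No shift by exonic length, low-UMI barcodes or cell cycle was simulated. The scripts ran on numpy 2.4.6, pandas 2.3.3, matplotlib 3.10.9 and scipy 1.17.1 under Python 3.11.15.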

Additional observations from a re-analysis of the deposited data

Results flagged for a closer look

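For 6 members, the level was above the control after 10 mGy and below it after 100 mGy, each beyond counting error. The difference was not tested, since each dose has 1 library. The share of all genes with both sides was not counted. In CPM, 28.1% of all genes were above the control after 10 mGy and 25.3% after 100 mGy. The opposite sides of the 6 members hold in CPM. With median ratio scaling all 6 were above the control after 100 mGy too (1.03 to 1.26). As unscaled UMIs per barcode all 6 were below it after both doses, where 84.6% and 90.1% of all genes were over 1.2-fold lower. The ratio of 100 mGy to 10 mGy was 0.707 for HMGCS1, 0.882 for SQLE, 0.595 for INSIG1, 0.730 for IDI1, 0.816 for SC5D and 0.742 for LSS.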

How the results depend on the processing

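No paired analysis was possible because each dose has 1 library. What caused the changes was not tested. The summed ratio to the control moved with the scaling. After 10 mGy (1.26) it was 1.55 with median ratio scaling and 1.34 with a total without ribosomal protein and mitochondrially encoded genes (reduced total). It was 1.28 thinned to 5000 UMIs and 1.53 adjusted for exonic length. As unscaled UMIs per barcode it reversed to 0.875, where the median log2 ratio over all genes was -0.83. After 100 mGy (0.994) the same settings, in that order, gave 1.30, 1.08, 1.00, 1.28 and 0.636. After 1 Gy (0.998) median ratio scaling gave 0.977, length adjustment 0.977 and unscaled UMIs 0.711. For 100 mGy against 10 mGy (0.789) the values were 0.835, 0.806, 0.783, 0.834 and 0.727.

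The number of members over 1.2-fold from the control after 10 mGy, 5, was 8 with median ratio scaling, 8 adjusted for length, 4 thinned, 3 (all lower) unscaled and 2 at a fold of 1.5. After 100 mGy, 4 (2 higher, 2 lower) became 3 (all higher) with median ratio scaling and adjusted for length. It was 3 (2 higher, 1 lower) with the mean of scaled barcodes, 2 with the reduced total, 8 unscaled and 0 at 1.5. After 1 Gy, 1 became 0 with the mean of scaled barcodes, 7 unscaled and 0 at 1.5. Between the low doses, 7 became 4 with median ratio scaling and adjusted for length. It became 5 with the mean of scaled barcodes and with the reduced total, 8 unscaled and 1 at 1.5. Single members changed sides of the control. As unscaled UMIs these were HMGCS1 0.843, INSIG1 0.930, IDI1 0.863, SQLE 0.757, SC5D 0.732 and LSS 0.736 after 10 mGy, FDFT1 0.833 and DHCR7 0.791 after 100 mGy, and DHCR7 0.877, INSIG1 0.729, FDFT1 0.748, SC5D 0.731 and LSS 0.747 after 1 Gy. After 100 mGy median ratio scaling turned INSIG1 1.04, LSS 1.03, HMGCS1 1.12, SQLE 1.26, IDI1 1.19 and SC5D 1.12, and length adjustment turned LSS 1.18, HMGCS1 1.12, SQLE 1.24, IDI1 1.18 and SC5D 1.17. The reduced total turned SQLE (1.05) after 100 mGy. The mean of scaled barcodes turned SC5D (0.995) after 10 mGy and INSIG1 (0.997) after 1 Gy.

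With all deposited barcodes the median r of member pairs was 0.118 after 10 mGy, 0.130 after 100 mGy and 0.123 after 1 Gy, and thinned to 5000 UMIs it was 0.038 in the control, 0.058, 0.045 and 0.030. The median rank was 16, 37, 158.5 and 188.5 with all barcodes, and 8.5 in the control when thinned. Of the summed ratios, counts, correlations and ranks under other settings, 81 stayed the same, 42 moved and 1 reversed. A ratio or correlation stayed the same if it lay within an interval for counting UMIs or barcodes, which covers no variation between cultures. For counts and ranks the limit was 1.5 times. Among the 81 were those without low-UMI or very high UMI barcodes, with linear values, Spearman's rho and depth regressed out.

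The share of all genes past the fold also moved. After 10 mGy, 15.4% higher and 53.0% lower became 30.6% and 27.3% with median ratio scaling, 24.4% and 21.8% adjusted for length, 1.62% and 84.6% unscaled, and 4.94% and 25.8% at a fold of 1.5. After 100 mGy, 14.0% and 58.9% became 31.8% and 29%, 25.6% and 23.8%, 1.02% and 90.1%, and 5.04% and 33.9%. With a floor of 100 CPM the higher share was 30.7% after 10 mGy and 30.9% after 100 mGy, where the lower share was 39.0%. After 1 Gy, 1.28% higher became 0.658% with median ratio scaling, 2.27% thinned, 3.14% at a floor of 1 CPM, 0.0118% at 1.5 and 0% unscaled. The lower share of 0.846% became 1.59% with median ratio scaling, 1.42% at a floor of 1 CPM, 0.0235% at 1.5, 97.2% unscaled and 1.28% with the mean of scaled barcodes. Between the low doses, 1.35% higher and 12.7% lower became 4.69% and 6.35% with median ratio scaling, 3.38% and 6.73% adjusted for length, 0.341% and 31.6% unscaled, and 0.094% and 0.858% at 1.5. With a floor of 100 CPM they were 2.14% and 6.18%. The higher share was 2.41% at a floor of 1 CPM and 2.14% with the reduced total.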
